A study of Mus musculus with 2 samples.

Results

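The phagocyte NADPH oxidase is the enzyme complex with which neutrophils and macrophages make superoxide, and 5 of its subunit genes, Cybb, Cyba, Ncf1, Ncf4 and Rac2, are described here across the immune cells of a mouse tumour. They were found as the rows of both deposited matrices that carry these gene symbols, and all 5 were found among the 31253 genes of the matrices. The cells came from tumours of MB49, a mouse bladder cancer line, and were sorted as live CD45+ cells after enzymatic digestion at 37 °C. They were captured on the BD Rhapsody microwell system, in which each messenger RNA receives a cell barcode and a unique molecular identifier (UMI) at its 3′ end. There was 1 library labelled wt and 1 labelled Lcn2-ko. The host mice of both were females that had been lethally irradiated. They then received male bone marrow, wild type for the wt library and Lcn2-KO for the other, so the loss was limited to cells that came from the marrow and was not restricted to a cell type. The sex label of both libraries was female, whereas the protocol spoke of tumours of male and female mice, and how many mice each library pooled was not given in the sources used here.

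At rest the oxidase is held apart. Cybb encodes gp91phox, the catalytic membrane subunit, and Cyba encodes p22phox, its partner in flavocytochrome b558. Ncf1 encodes p47phox, the cytosolic organiser that docks on p22phox after phosphorylation, and Ncf4 encodes p40phox, which binds a phosphoinositide of the phagosome membrane. Rac2 encodes the small GTPase of blood cells that joins the complex in its active form. Loss of the oxidase in people is known as chronic granulomatous disease, and neutrophils are the cells in which its burst of superoxide is best known.

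The wt library held 42069099 UMIs in 7974 barcodes and the library labelled Lcn2-ko held 40959725 UMIs in 7788 barcodes, of which 7399 and 7241 were kept as cells. The libraries shared 4 barcodes. Cells were clustered without the 5 genes and named from marker lists into 11 classes, and pairs of values below are in the order wt, then the library labelled Lcn2-ko. The neutrophil class held 548 and 350 cells, monocytes 131 and 180, macrophages 223 and 285, T cells 2915 and 3190, NK cells 239 and 341, and B cells 50 and 39. Dendritic cells fell into a Cd209a class of 217 and 214 cells, an Xcr1 class of 424 and 231 and a Ccr7 class of 77 and 87. Although the cells had been sorted for CD45, 25.2% and 23.3% of kept cells were in clusters with little Ptprc, the gene of CD45. These Ptprc-low cells as a class carried tumour or stromal markers and serve below as the background level. Their clusters led by Ccl20 and by Fgb, however, had few of those markers 2-fold higher than elsewhere, a share of 0.286 in each. Sub-clusters that carried the markers of a different class were set apart as mixed. Lcn2 itself was at 209 CPM (UMIs of a gene per 1000000 UMIs of the class) in wt neutrophils and 130 CPM in those of the library labelled Lcn2-ko. The tags mark the 3′ end and the labels do not say which part of the gene was deleted, so this count does not check the label. With 1 library per label nothing was tested between conditions, and the 95% intervals given below cover counting error only.

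In the GENCODE M21 annotation of GRCm38 (mm10), the 5 are protein-coding genes on 4 chromosomes. Cybb (ENSMUSG00000015340) lies on chromosome X from 9435252 to 9487771, Cyba (ENSMUSG00000006519) on chromosome 8 from 122424776 to 122432930, and Ncf1 (ENSMUSG00000015950) on chromosome 5 from 134220053 to 134229625, each on the minus strand. Ncf4 (ENSMUSG00000071715) lies on the plus strand of chromosome 15 from 78244801 to 78262580, and Rac2 (ENSMUSG00000033220) on its minus strand from 78559167 to 78572783, 296586 bases away. Cyba lies wholly within Gm20388, a gene of the plus strand that had 0 UMIs in neutrophils, macrophages and T cells of both libraries. The 3′ end of Ncf1 overlaps Gtf2ird2 on the plus strand, for which neutrophils had 1 and 0 UMIs. T cells had 42 and 54 UMIs of Gtf2ird2, beside 143 and 143 of Ncf1. Ptprc-low cells had 70 and 64, beside 25 and 45 of Ncf1. Whether the counting used strand was not given in the sources used here.

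Promoters of 3 of the 5 genes, Cybb, Cyba and Ncf1, were matched in the RefSeq table of GRCm38.p6. No promoter was matched for Ncf4 or Rac2. The levels of the 3 matched genes followed 3 different orders across the classes. Whether these promoters relate to those orders was not tested. Each is written 5′ to 3′ along the gene, from 250 bases before to 50 bases after the RefSeq start, and all 3 are on the minus strand. Cybb is chrX:9469275-9469574, Cyba is chr8:122432891-122433190 and Ncf1 is chr5:134229576-134229875. The Cybb stretch lies inside the GENCODE interval of the gene given above, away from its end at 9487771. The Cyba and Ncf1 stretches reach over the ends of theirs.
Cybb: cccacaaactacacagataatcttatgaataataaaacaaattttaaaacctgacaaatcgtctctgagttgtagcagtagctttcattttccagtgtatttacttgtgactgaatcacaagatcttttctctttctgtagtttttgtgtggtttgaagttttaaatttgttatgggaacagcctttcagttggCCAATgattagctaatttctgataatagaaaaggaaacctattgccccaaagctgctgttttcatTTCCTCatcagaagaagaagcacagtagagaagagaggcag
Cyba: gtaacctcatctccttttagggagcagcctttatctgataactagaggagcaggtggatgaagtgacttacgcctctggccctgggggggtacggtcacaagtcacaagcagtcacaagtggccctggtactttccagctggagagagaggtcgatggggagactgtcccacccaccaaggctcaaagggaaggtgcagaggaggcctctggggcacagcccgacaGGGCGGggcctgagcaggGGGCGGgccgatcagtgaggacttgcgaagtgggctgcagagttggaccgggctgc
Ncf1: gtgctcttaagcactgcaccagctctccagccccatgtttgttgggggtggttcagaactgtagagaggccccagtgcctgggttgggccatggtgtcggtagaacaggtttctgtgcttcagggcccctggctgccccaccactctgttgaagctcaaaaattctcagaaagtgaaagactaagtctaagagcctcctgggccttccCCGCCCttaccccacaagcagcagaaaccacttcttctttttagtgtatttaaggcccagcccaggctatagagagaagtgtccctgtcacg
Capitals mark matches, searched on both strands, to GAGGAA (the core that PU.1, a factor of myeloid cells, recognises), to GGGCGG (a GC box) and to CCAAT. The Cybb promoter held GAGGAA on the minus strand at position 10 after the start and CCAAT at -56. GGGCGG was found in Cyba at -24 and -6, and in Ncf1 on the minus strand at -42. Such matches are common, since 28.3% of 32851 promoters of the same length held GAGGAA, 35.7% held GGGCGG and 37.4% held CCAAT. The Cybb promoter had a GC content of 35.3%, at the 3.98th percentile of those promoters. The Cyba and Ncf1 promoters, at 60.7% and 54.0%, were above the median of 52.7%.

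Cybb, the catalytic subunit, was high in the monocytes and macrophages of these tumours and low in the neutrophils. It was at 1789 CPM (95% interval 1670 to 1914) in wt monocytes and at 1959 CPM (1853 to 2069) in those of the library labelled Lcn2-ko. Macrophages had 1124 CPM (1077 to 1174) and 1020 CPM (979.9 to 1062). In neutrophils the level was 27.6 CPM (17.1 to 42.2), from 21 UMIs in 548 cells, and 81.2 CPM (56.6 to 113), from 35 UMIs in 350 cells. The macrophage level was thus 40.8-fold (26.6 to 66) and 12.6-fold (9.01 to 18.1) the neutrophil level, and the intervals of the classes did not overlap in either library. Neutrophils carry little RNA, with a median of 1299 and 1195 UMIs per cell against 7722 and 7880 in macrophages. Counted per cell instead, Cybb had 9.29 and 8.37 UMIs in a macrophage, 6.45 and 7.11 in a monocyte and 0.0383 and 0.1 in a neutrophil, so that macrophages then stood above monocytes and neutrophils stayed far below both.

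**Figure D1:**
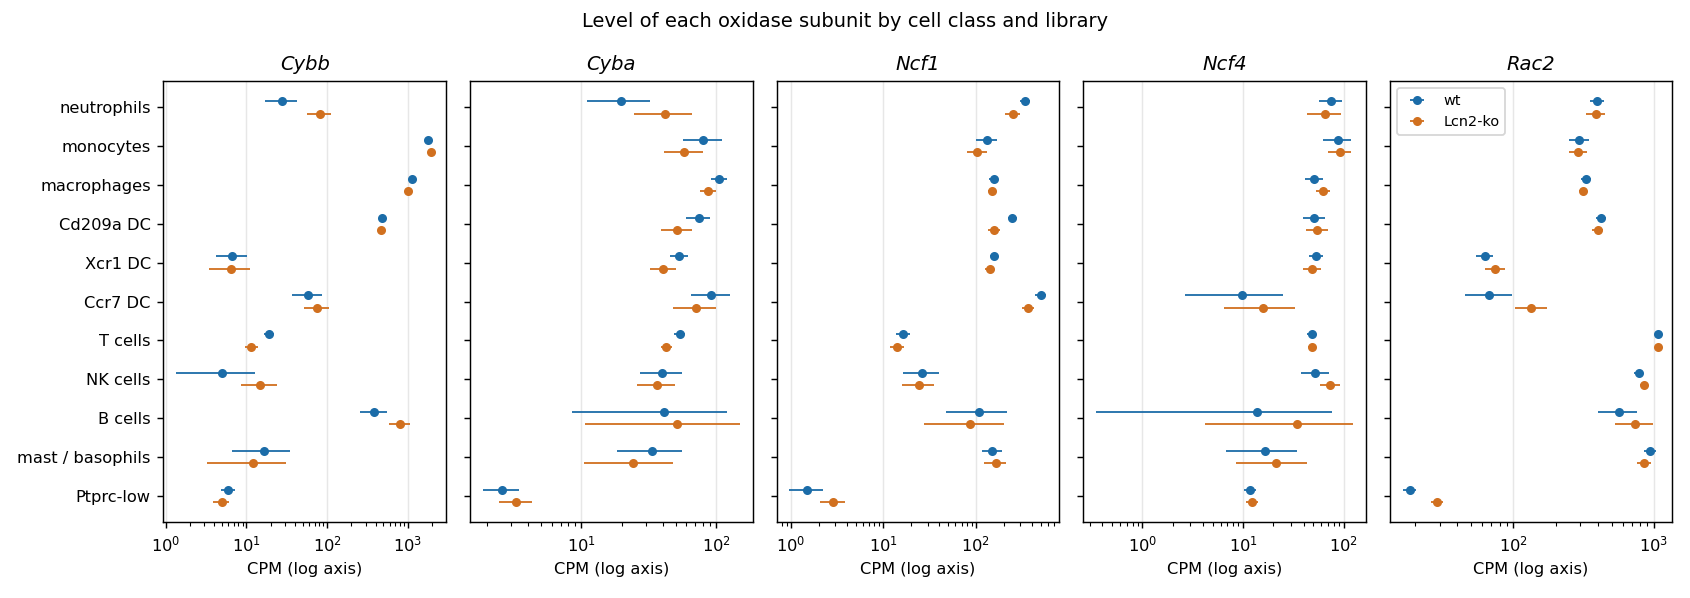
Level of each subunit gene (CPM, log axis) in the 11 cell classes, 1 point per library, with exact Poisson 95% intervals as bars. Cybb is above 1000 CPM in monocytes and macrophages and at 27.6 and 81.2 CPM in neutrophils, while Ncf1 is highest in Ccr7 dendritic cells and Rac2 in T cells.

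The share of cells with a Cybb UMI gave the same contrast at matched depth. After each cell was thinned to 800 UMIs, 59.5% and 66.7% of monocytes and 50.9% and 52.3% of macrophages had a Cybb UMI. Among neutrophils it was 1.2% (0.459 to 2.70) and 2.47% (1.00 to 5.03), against 0.451% and 0.305% of Ptprc-low cells and 0.830% and 0.661% of T cells. The wt neutrophil interval thus held the T cell share, and that of the library labelled Lcn2-ko began above it. Before thinning, 2.74% and 6% of neutrophils had a UMI, against 4.02% and 3.80% of Ptprc-low cells, whose median depth was 8153.5 and 8534 UMIs. The shallowest Ptprc-low cluster, led by Ccl20 and Csmd1, had medians of 971 and 1078 UMIs. Its thinned Cybb share was 1.36% (0.165 to 4.83) in wt and 0 of 103 cells (up to 3.52%) in the other library. Both intervals overlapped those of neutrophils. Its level was 16.7 CPM (6.1 to 36.3) and 4.21 CPM (0.107 to 23.4), which overlapped the neutrophil interval in wt only. Beside this result, the 12 neutrophil markers together were at 33650 and 32220 CPM in the neutrophil class and the 10 macrophage markers at 758.9 and 758.8 CPM. Of those 10, none was at 0 in wt and 1 was at 0 in the library labelled Lcn2-ko. The part of this macrophage signal in the neutrophil Cybb level was not tested.

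Among dendritic cells Cybb separated the classes. The Cd209a class, which carries markers of type 2 conventional dendritic cells, had 472.5 CPM (436.5 to 510.6) and 461.4 CPM (423.7 to 501.6). The Xcr1 class, whose markers are those of cross-presenting type 1 cells, had 6.72 CPM (4.21 to 10.2) and 6.48 CPM (3.45 to 11.1), so that the Cd209a level was 70.3-fold (46.0 to 113) and 71.2-fold (41.3 to 135) as high. The Xcr1 level did not stand apart from the 5.96 and 4.93 CPM of Ptprc-low cells, over which it was 1.13-fold (0.676 to 1.80) and 1.31-fold (0.669 to 2.38). Ccr7 dendritic cells, the mature migratory kind, lay between with 58.1 and 75.1 CPM, from 24 and 33 UMIs that came from few cells, 11.7% and 14.9% of the class. The 8 monocyte markers together were at 1343 and 2057 CPM in the Cd209a class and 155.5 and 209.2 CPM in the Xcr1 class. In monocytes they were at 7873 and 8602 CPM, and their part in the Cd209a level of Cybb was not tested.

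Lymphocytes were low in Cybb, with an exception in B cells. T cells had 19.2 CPM (16.4 to 22.3) and 11.6 CPM (9.58 to 13.9), and NK cells 4.98 CPM from 4 UMIs and 14.9 CPM from 16 UMIs, of which 10 came from 1 cell. B cells, with 50 and 39 cells, had 383 CPM (254.5 to 553.5) and 804.3 CPM (591 to 1070), 20-fold (12.9 to 29.9) and 69.5-fold (48.5 to 98.2) the T cell level. The B cell UMIs were spread over 28.0% and 51.3% of the cells, with at most 4 and 6 in a cell. In the B cell class the 11 dendritic cell markers together were at 1272 and 1865 CPM, with 7 and 8 of them at 0, and the 10 macrophage markers at 164.1 and 188.2 CPM. The 8 monocyte markers were at 1122 and 1848 CPM, with 4 and 1 of them at 0, and the 9 T cell markers at 1450 and 1386 CPM with none at 0. The same monocyte list was at 1044 and 1252 CPM in T cells and 1343 and 1664 CPM in NK cells. In Ptprc-low cells it was at 2293 and 2304 CPM. The part of these markers in the B cell level was not tested.

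Cyba, the membrane partner of Cybb, did not share its range. Its level was highest in wt macrophages, at 105.3 CPM (91.0 to 121), and was 87.7 CPM (76.1 to 100.5) in those of the library labelled Lcn2-ko. Monocytes had 80.5 and 58.2 CPM, and T cells 53.7 CPM (49.0 to 58.8) and 42.6 CPM (38.7 to 46.8). Xcr1 dendritic cells, which had next to no Cybb, had 52.9 and 40.4 CPM of Cyba, 20.6-fold and 12.3-fold the Ptprc-low level. In neutrophils Cyba was at 19.7 CPM (11 to 32.5), from 15 UMIs, and at 41.8 CPM (24.8 to 66), from 18 UMIs. The macrophage level was 5.35-fold (3.16 to 9.74) and 2.10-fold (1.30 to 3.61) that of neutrophils. Both membrane subunits were therefore lower in neutrophils than in macrophages in both libraries. At matched depth 1.2% and 2.83% of neutrophils had a Cyba UMI, against 0.169% and 0.366% of Ptprc-low cells. Before thinning it was 2.6% and 4.3% of neutrophils, against 2.3% and 2.9% of the deeper Ptprc-low cells. In the shallow Ptprc-low cluster led by Ccl20 the thinned share was 0.680% (0.0172 to 3.73) and 0.971% (0.0246 to 5.29). These intervals overlapped those of neutrophils in both libraries. In the Ptprc-low class Cyba was at 2.56 and 3.29 CPM.

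Ncf1, the organiser, ran the other way between neutrophils and macrophages. Neutrophils had 343 CPM (302.4 to 387) and 251 CPM (206 to 303), and macrophages 155 CPM (138 to 174) and 149.7 CPM (134 to 166). The macrophage level was 0.453-fold (0.382 to 0.538) and 0.597-fold (0.480 to 0.748) the neutrophil level. The highest level among the 11 classes was in Ccr7 dendritic cells, with 505.5 CPM (439 to 579) and 368.5 CPM (314 to 429.8), which was 1.48-fold (1.22 to 1.78) and 1.47-fold (1.15 to 1.89) that of neutrophils. Cd209a dendritic cells had 249 and 159 CPM, Xcr1 dendritic cells 157 and 141 CPM, and mast cells or basophils 150.1 and 163 CPM. T cells, at 16.3 and 14.0 CPM, and NK cells, at 26.1 and 24.2 CPM, were the lowest of the CD45+ classes. The background level in Ptprc-low cells was 1.49 and 2.85 CPM.

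Counted per cell, Ncf1 was not highest in neutrophils either, and their place was lower. A Ccr7 dendritic cell had 2.71 and 1.86 UMIs of Ncf1, a macrophage 1.28 and 1.23, and a neutrophil 0.476 and 0.309. At matched depth 20.6% (17.1 to 24.5) and 15.9% (11.8 to 20.7) of neutrophils had an Ncf1 UMI, and 20.8% and 26.7% of Ccr7 dendritic cells, against 0.169% and 0.183% of Ptprc-low cells. Whether neutrophils or macrophages held more Ncf1 therefore turned on the scale, while for Cybb and Cyba it did not.

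**Figure D2:**
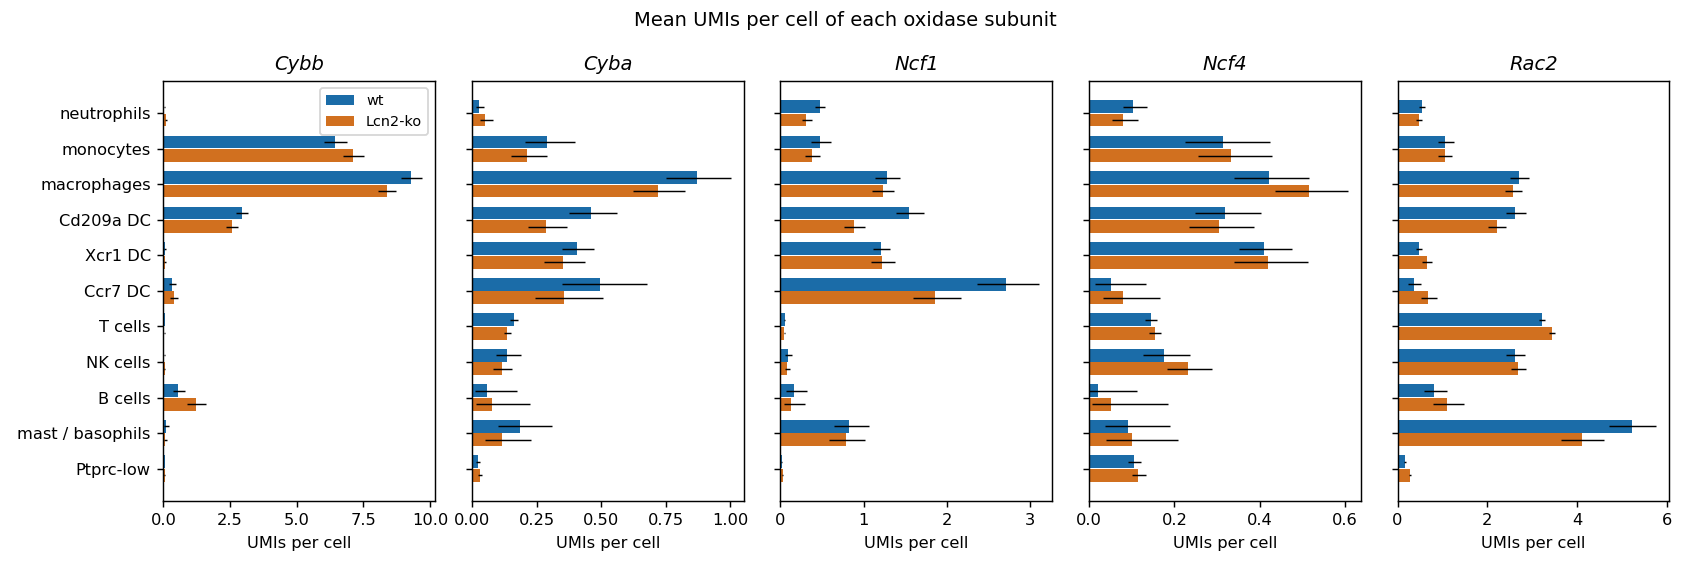
Mean UMIs of each subunit gene per cell in each class and library (bars, linear axes from 0 that differ between genes), with exact Poisson 95% intervals as lines. Macrophages lead neutrophils for Cybb, Ncf1 and Rac2, at 9.29, 1.28 and 2.71 against 0.0383, 0.476 and 0.549 UMIs per cell in wt.

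Ncf4, the phosphoinositide-binding subunit, lay in a narrow range in most classes. Monocytes had 86.8 CPM (62.3 to 118) and 91.8 CPM (70.1 to 118), neutrophils 74.8 CPM (56.7 to 97.0) and 65.0 CPM (43.2 to 93.9), and macrophages 51.0 CPM (41.2 to 62.4) and 62.9 CPM (53.1 to 73.9). T cells, at 48.0 CPM (43.6 to 52.8) and 48.2 CPM (44.0 to 52.6), NK cells, at 52.3 and 73.5 CPM, and both Xcr1 and Cd209a dendritic cells, at 48.3 to 54.5 CPM, lay in the same range. Neighbours in this order overlapped within their intervals in both libraries. Ccr7 dendritic cells fell below it, with 9.68 CPM from 4 UMIs and 15.9 CPM from 7 UMIs, and did not stand apart from the 11.7 and 12.3 CPM of Ptprc-low cells. Relative to Xcr1 dendritic cells the Ccr7 level was 0.182-fold (0.0490 to 0.474) and 0.329-fold (0.129 to 0.705). The dendritic class with the highest Ncf1 thus had the lowest Ncf4 of the 3. Mast cells or basophils were also low, with 16.7 and 21.2 CPM, 0.347-fold (0.139 to 0.722) and 0.439-fold (0.176 to 0.912) the T cell level, and B cells had 13.7 and 34.2 CPM from 1 and 2 UMIs. After thinning, monocytes stood above macrophages by 1.68 on the log2 scale as a mean of both libraries, against 0.66 at full depth. The thinned value rests on few cells, with an Ncf4 UMI in 8 and 15 monocytes and in 3 and 10 macrophages. Counted per cell at full depth, a macrophage had 0.42 and 0.52 UMIs of Ncf4 and a neutrophil 0.10 and 0.08.

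Rac2, the GTPase, was a gene of lymphocytes as much as of phagocytes. T cells had 1070 CPM (1048 to 1092) and 1078 CPM (1058 to 1098), and mast cells or basophils 945.9 and 855.8 CPM. NK cells followed with 780.5 and 854 CPM and B cells with 561 and 736 CPM. Neutrophils had 395 CPM (352 to 442.5) and 385 CPM (329 to 448.5), macrophages 328 and 313.5 CPM, and monocytes 294 and 289 CPM. The T cell level was 2.71-fold and 2.80-fold that of neutrophils. In CPM, neutrophils and macrophages differed little, the macrophage level being 0.829-fold and 0.814-fold the neutrophil level. Counted per cell, a macrophage had 2.71 and 2.57 UMIs of Rac2 and a neutrophil 0.549 and 0.474. Within dendritic cells the Cd209a class, at 422 and 398 CPM, was 6.74-fold (5.74 to 7.95) and 5.32-fold (4.42 to 6.44) the Xcr1 class, which had 62.6 and 74.7 CPM. Both Cybb and Rac2 therefore split the Cd209a from the Xcr1 dendritic cells, while Cyba was 1.40-fold (1.08 to 1.80) and 1.27-fold (0.894 to 1.79) apart, Ncf1 1.59-fold (1.38 to 1.83) and 1.12-fold (0.931 to 1.36), and Ncf4 0.961-fold and 1.13-fold.

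Within monocytes and macrophages Cybb in CPM was highest in the monocyte sub-cluster led by Ifitm6, Hp, Vcan and Chil3. These 56 and 79 cells had 2819 CPM (2588 to 3065) and 3105 CPM (2896 to 3326). The other monocyte sub-cluster, led by Slpi, Inhba and Thbs1, had 1066 and 1186 CPM, so that the first was 2.64-fold (2.29 to 3.06) and 2.62-fold (2.33 to 2.94) as high. Of the macrophage sub-clusters, that led by Mmp2, Cx3cr1 and Apoe had 1611 and 1455 CPM, that led by Dcstamp and Ccl17 had 998.6 and 942 CPM, and the cycling one led by Top2a had 932 and 749.8 CPM. The order of the 5 was the same in both libraries, though in wt the Slpi and Dcstamp sub-clusters overlapped within their intervals, as did the Dcstamp and the cycling one. Counted per cell, an Ifitm6 monocyte had 9.80 and 10.3 UMIs of Cybb, an Mmp2 macrophage 10.5 and 10.3 and a cycling macrophage 10.9 and 8.64, so the Ifitm6 monocytes were not the highest in wt on that scale. Rac2 was also higher in the first monocyte sub-cluster, with 421 and 369 CPM against 205 and 236 CPM, 2.05-fold (1.45 to 2.93) and 1.56-fold (1.16 to 2.10). Among macrophages, in contrast, Rac2 was highest in the cycling cells, at 396 and 405 CPM against 229.9 and 272 CPM in the Mmp2 sub-cluster. The Mmp2 sub-cluster thus had 1.73-fold and 1.94-fold the Cybb of cycling macrophages and 0.581-fold and 0.671-fold their Rac2.

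Neutrophils fell into 4 sub-clusters, and in each of them Cybb stayed low. The sub-cluster led by Atp6v0d2 and Gpnmb had 23.6 and 57.7 CPM, that led by Ffar2 and Icam1 37.9 and 91.2 CPM, that led by Retnlg and Wfdc21 17.2 and 90.3 CPM, and that led by Ifit1 and Cxcl10 37.8 and 113 CPM. None of these 8 values came from more than 11 UMIs. Ncf1 and Rac2 instead differed among the sub-clusters. Ncf1 was lowest in the Atp6v0d2 sub-cluster (209 and 142 cells), at 172 CPM (128 to 226) and 127 CPM (79.6 to 192), and was 442 and 346 CPM in the Retnlg one, 530.3 and 348 CPM in the Ffar2 one and 370.0 and 297 CPM in the Ifit1 one. The last 3 together had 2.63-fold (1.93 to 3.64) and 2.63-fold (1.63 to 4.41) the Ncf1 of the first. For Rac2 the same contrast was 1.82-fold (1.40 to 2.39) and 3.98-fold (2.57 to 6.41), with 263 and 138.5 CPM in the Atp6v0d2 sub-cluster and up to 545 and 782.5 CPM in the Retnlg one. Ncf4 gave 1.96-fold (1.05 to 3.88) and 2.02-fold (0.826 to 5.62). Cyba had 0 UMIs in the Retnlg sub-cluster of the library labelled Lcn2-ko, which allows up to 45.1 CPM, and could not be ordered. Ncf1 and Rac2 thus had their lowest level in the same neutrophil sub-cluster in both libraries, although its interval overlapped that of the Ifit1 sub-cluster except for Ncf1 in wt.

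**Figure D3:**
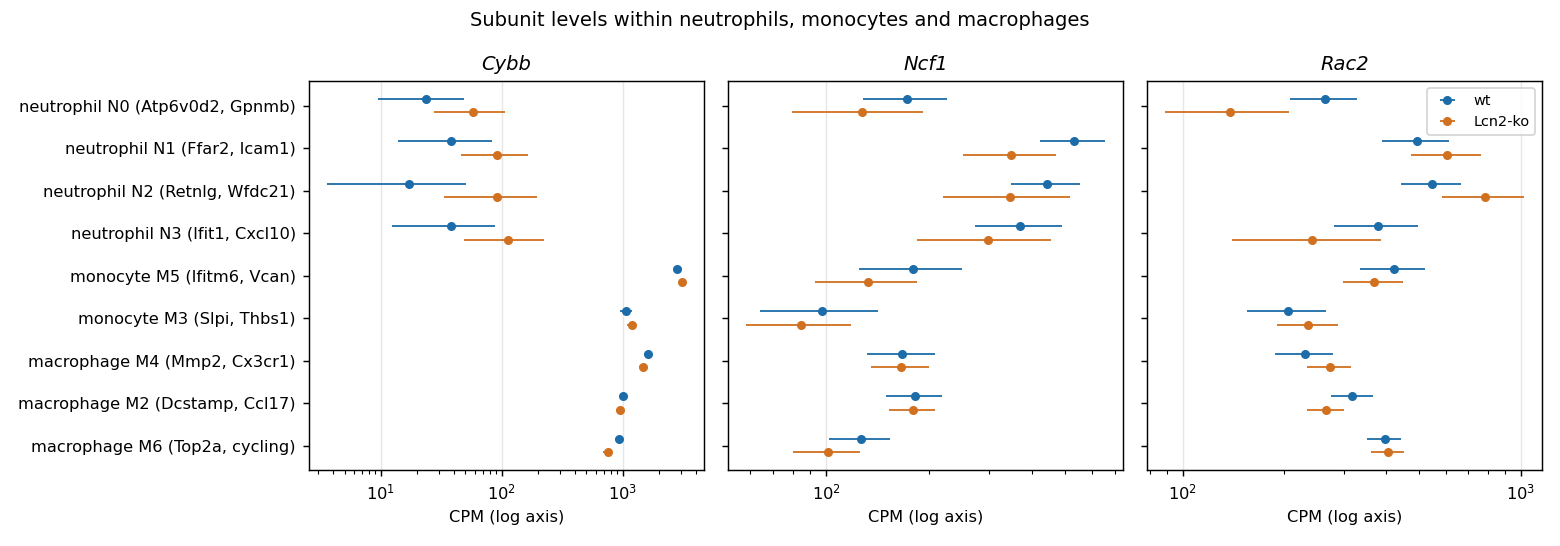
Levels of Cybb, Ncf1 and Rac2 (CPM, log axis) in the sub-clusters of neutrophils, monocytes and macrophages, named by leading genes, 1 point per library, with exact Poisson 95% intervals as bars. The Ifitm6 monocytes top the Cybb panel at 2819 and 3105 CPM, and the Atp6v0d2 neutrophils hold 172 and 127 CPM of Ncf1 against 297 to 530.3 CPM in the other neutrophil sub-clusters.

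Of the cells set apart as mixed, the neutrophil sub-cluster (71 and 37 cells) was led by Ngp, Camp, Chil3 and Ccr2. It was set apart for its macrophage, dendritic cell and T cell markers. Its Cybb level was 312.6 and 292.7 CPM, above the 27.6 and 81.2 CPM of the neutrophil class. The part of those markers in this level was not tested. The mixed monocyte-macrophage cells (313 and 316) had 739 and 747 CPM, below both classes, and the mixed dendritic cells (86 and 47) had 226 and 187.5 CPM, below the Cd209a class. A small sub-cluster with Siglech, a gene of plasmacytoid dendritic cells (4 and 13 cells), had 1828 CPM (1131 to 2794) and 1844 CPM (1448 to 2315), close to the monocyte level but from 21 and 74 UMIs.

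The T cell class covered 8 clusters, over which Ncf1 and Cybb were uneven. Ncf1 was at 66.9 CPM (52.4 to 84.3) and 65.8 CPM (50.2 to 84.7) in the cluster led by Cd7, Klra7 and Xcl1, which carries genes of innate-like T cells, and at 2.23 to 24.1 CPM in the other 7. Cybb was at 29.5 and 17.2 CPM in the cluster led by Foxp3 and Il2ra, the genes of regulatory T cells, and at 28.7 and 14.5 CPM in the cluster led by Myb, Il2ra and Foxp3. In the Myb cluster 7 of the 25 wt UMIs came from 1 cell. Cybb was at 9.18 and 8.11 CPM in the cluster led by Gzmf and Cd8a. In that led by Ly6c2, Gzma and Cd8b1 it was at 20.3 CPM (13.1 to 29.9) and 10.55 CPM (5.91 to 17.4). These intervals overlapped those of the first Foxp3 cluster, 23.5 to 36.5 and 12.8 to 22.7 CPM. Rac2 lay between 885.7 and 1199 CPM over all 8 clusters and both libraries.

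How many subunits were seen in a single cell depended on the depth. At full depth at least 2 of the 5 genes were seen in 84.3% and 87.7% of macrophages, 88.9% and 79.4% of Cd209a dendritic cells, 67.2% and 73.3% of monocytes and 53.8% and 52.4% of Xcr1 dendritic cells. The share was 29.3% and 26.7% in T cells, 21.7% and 16% in neutrophils and 3.59% and 5.40% in Ptprc-low cells. After thinning to 800 UMIs, at least 2 of the 5 genes were seen in 29.0% and 24.4% of monocytes, 19.3% and 21.2% of macrophages, 19.4% and 17.8% of Cd209a dendritic cells and 11.4% and 7.07% of neutrophils. The share was 5.25% and 5.13% in T cells, 2.84% and 2.17% in Xcr1 dendritic cells, and 0.0610% in Ptprc-low cells of the library labelled Lcn2-ko. In wt it was 0 of 1774 Ptprc-low cells, which allows up to 0.169%. No member was seen in 56.3% and 57.6% of neutrophils, against 32.6% and 27.6% of macrophages. Cybb and Cyba, the genes of the flavocytochrome, were seen together in 7 and 11 macrophages and in 5 and 7 monocytes, and in 0 of 481 and 0 of 283 neutrophils. That allows up to 0.624% and 1.06% of cells with UMIs of both at this depth. Since only 6 and 7 of these neutrophils had a Cybb UMI and 6 and 8 a Cyba UMI, a joint cell could hardly have been seen. No thinned cell had all 5. At full depth all 5 were seen in 26 and 34 macrophages, 15 and 7 Cd209a dendritic cells, 3 and 2 monocytes and 0 neutrophils, which allows up to 0.547% and 0.857% of the 548 and 350.

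**Figure D4:**
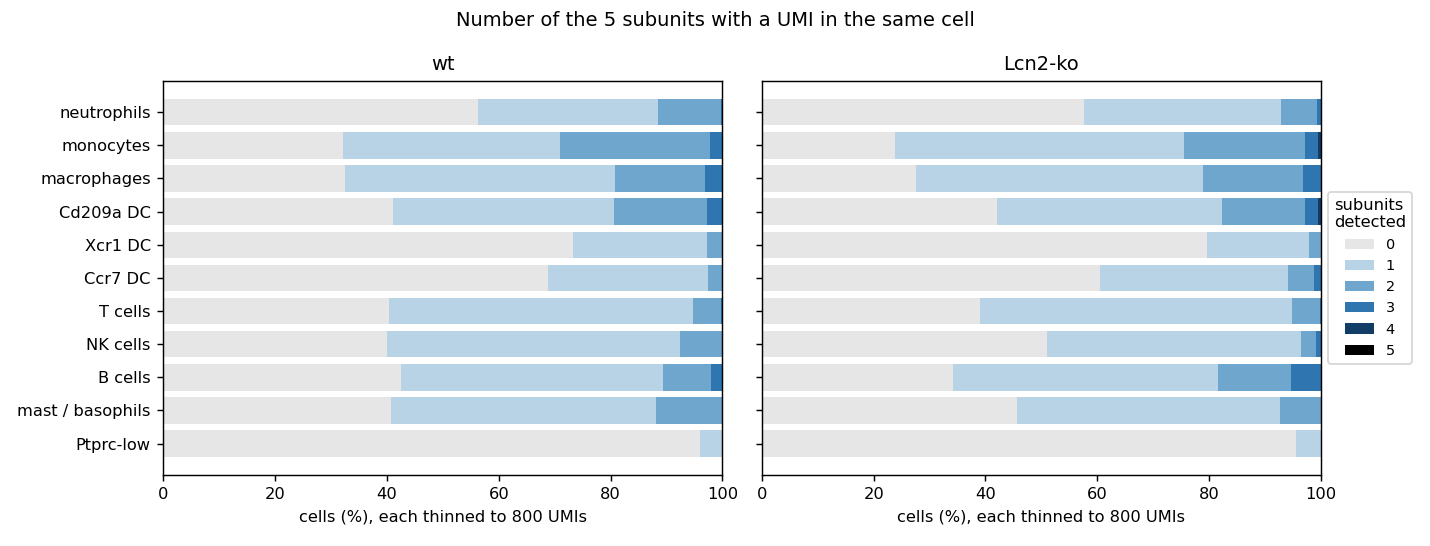
Share of cells (percent) in each class and library by how many of the 5 subunit genes had a UMI, after thinning each cell to 800 UMIs. Monocytes have the largest share with 2 or more, 29.0% and 24.4%, and over 95% of Ptprc-low cells have none.

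Between the libraries the members were compared in the 9 classes other than mast cells or basophils and Ptprc-low cells, as log2 ratios of the library labelled Lcn2-ko over wt. A ratio of at least 1.5-fold was counted as apart. Of the 45 pairs of a member and a class, 40 had at least 20 CPM in either library, the limit also used for the background of all genes, and 5 did not. In all, 7 pairs passed 1.5-fold with the higher level in the library labelled Lcn2-ko, 2 with the lower, and 36 lay between. Over all genes the share higher by that fold ran from 0.318% in T cells to 29.3% in B cells. The share lower ran from 0.683% to 36.2% in the same classes. B cells held 2 of the 7 higher pairs. Of the 40 above the limit, 5 were higher and 1 lower. Of the 7 higher pairs, 4 had an interval that left out 0, as did both lower ones.

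In neutrophils 2 of the 5 members were counted as higher, among a background in which 15.8% of 4327 genes were higher and 8.48% lower by that fold. These were the membrane subunits. Cybb went from 27.6 to 81.2 CPM, a log2 ratio of 1.56 (0.74 to 2.41), and its level was higher in each of the 4 sub-clusters. In the Atp6v0d2 sub-cluster, however, 7 of the 10 UMIs of the library labelled Lcn2-ko came from 1 cell, and without the top cell of each library 4 and 3 UMIs were left. Cyba went from 19.7 to 41.8 CPM, a log2 ratio of 1.09 (0.01 to 2.18). Its level was higher in 2 of the 4 sub-clusters, the Atp6v0d2 one at 6.75 and 52.0 CPM and the Ffar2 one at 37.9 and 66.3 CPM, and lower in the other two. Both rest on few UMIs, 21 against 35 and 15 against 18. With the mixed sub-cluster kept the Cybb ratio was 0.38, and with at least 500 genes per cell the Cyba ratio was -0.10. The 8 monocyte markers together were at 254.7 and 334 CPM in this class, and their part was not tested. Ncf1 had a log2 ratio of -0.45 (-0.79 to -0.12), Ncf4 of -0.20 (-0.91 to 0.47) and Rac2 of -0.04 (-0.32 to 0.24).

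In macrophages and monocytes no member was counted as apart, where 2.21% and 10.2% of genes were higher and 4.02% and 13.2% lower. Macrophage Cybb, with 2072 and 2386 UMIs, had a log2 ratio of -0.14 (-0.23 to -0.05), and monocyte Cybb one of 0.13. The interval of each left out 0, but neither sign held throughout. At clustering resolution 2 the macrophage ratio was 0.13 and the monocyte ratio -0.03, and the macrophage ratio was 0.04 after thinning. In monocytes Cyba was at -0.47, Ncf1 at -0.34, Ncf4 at 0.08 and Rac2 at -0.03. Monocyte Cyba was at 0.66 after thinning and at -0.71 with expression centred within each library, both past 1.5-fold and in opposite directions. The thinned value rests on 6 and 12 monocytes with a Cyba UMI. Macrophage Ncf1 was at -0.05 (-0.28 to 0.18), Ncf4 at 0.30 (-0.08 to 0.69), Rac2 at -0.06 (-0.22 to 0.09) and Cyba at -0.26 (-0.55 to 0.03). After thinning macrophage Ncf4 was at 1.38, past 1.5-fold, and Cyba at 0.54 and Rac2 at 0.39, each with its sign changed. The thinned macrophages with a UMI were 3 and 10 for Ncf4, 14 and 23 for Cyba and 41 and 66 for Rac2.

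**Figure D5:**
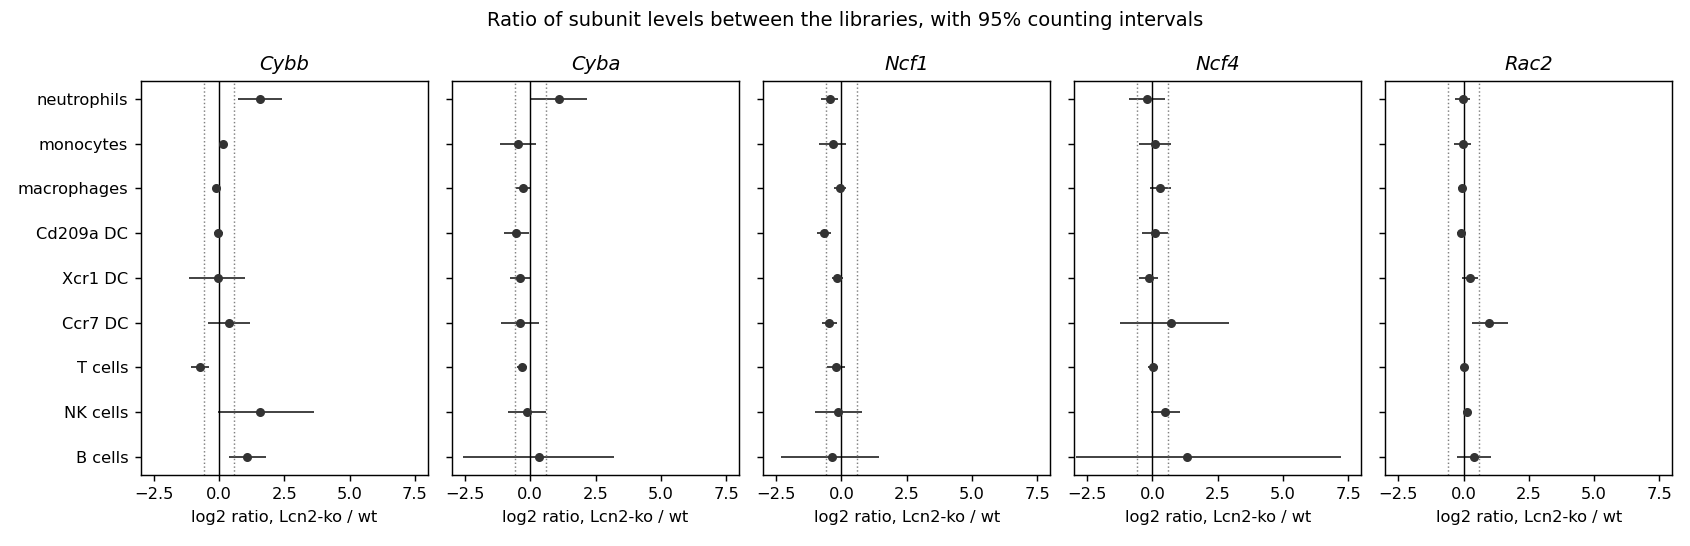
Log2 ratio of the library labelled Lcn2-ko over wt for each subunit gene in 9 cell classes, with exact conditional binomial 95% intervals as bars and lines at 1.5-fold. Neutrophil Cybb is at 1.56, Ncf1 is at or below -0.05 in all 9 classes, and T cell Rac2 is at 0.01.

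Dendritic cells differed in Ncf1 and Rac2. In the Cd209a class Ncf1 was lower, 249 against 159 CPM, with a log2 ratio of -0.65 (-0.92 to -0.39), in a background of 5.53% higher and 5.77% lower. It was lower in each of the 3 Cd209a sub-clusters, at 219 and 164, 295 and 187, and 175.5 and 133 CPM. Thinning gave -0.33 and a finer clustering -0.36, which are under the 1.5-fold limit. The 8 monocyte markers were at 1343 and 2057 CPM in this class, and their part was not tested. Cyba in this class was at -0.53 (-1.02 to -0.06), short of 1.5-fold, and at -1.07 after thinning. Cybb was at -0.03, Ncf4 at 0.09 and Rac2 at -0.09. In the Ccr7 class Rac2 was higher, 67.7 against 134 CPM, with a log2 ratio of 0.99 (0.31 to 1.69), in a background of 13.3% higher and 15% lower. Without cells holding UMIs of other classes' markers it was 0.43. Ncf1 there was at -0.46 (-0.76 to -0.15), and at 0.03 after thinning. Ncf4 was counted as higher too, at 0.72 (-1.26 to 2.94), from 4 and 7 UMIs, while Cybb was at 0.37 and Cyba at -0.38. In the Xcr1 class no member was apart, among 1.47% of genes higher and 3.38% lower, and Cyba was at -0.39, Cybb at -0.05, Ncf1 at -0.15, Ncf4 at -0.14 and Rac2 at 0.26. Ncf1 there was at -0.78 after thinning, and Cybb, which was near background, at 1.04 without cells holding other classes' marker UMIs.

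T cells had the deepest counts, and there only Cybb passed 1.5-fold, in a background of 0.318% higher and 0.683% lower. It went from 19.2 to 11.6 CPM, a log2 ratio of -0.73 (-1.08 to -0.38), at a level below the 20 CPM limit of that background. After thinning the ratio was -0.14. T cell Rac2, from 9378 and 10988 UMIs, had a ratio of 0.01 (-0.03 to 0.05), and Ncf4 one of 0.00 (-0.19 to 0.20). Cyba was at -0.34 (-0.53 to -0.14), and at 0.06 after thinning, and Ncf1 at -0.22. In NK cells Cybb was counted as higher at 1.58 (-0.05 to 3.62), in a background of 5.25% higher and 6.36% lower. Without the top cell of each library it was 0.57. NK cell Cyba was at -0.13, Ncf1 at -0.11, Ncf4 at 0.49 and Rac2 at 0.13. In B cells Cybb was higher, at 1.07 (0.37 to 1.80), and Ncf4 at 1.32 (-2.94 to 7.21) from 1 and 2 UMIs, in a background of 29.3% higher and 36.2% lower. With 50 and 39 cells, 2 higher members of 5 was close to that background. Beside the Cybb ratio, the monocyte markers were at 1122 and 1848 CPM in this class and Ly6c2, one of them, at 0 and 31 UMIs, the latter 530.5 CPM, and their part was not tested. The other members in B cells were at 0.32 for Cyba, -0.36 for Ncf1 and 0.39 for Rac2.

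By gene, the sign of the ratio was most uniform for Ncf1, which was negative in all 9 classes, from -0.65 to -0.05, with 3 intervals that left out 0. Under alternatives it was positive in B cells (0.63 after thinning), in macrophages (0.10 at clustering resolution 2) and in Ccr7 dendritic cells (0.03 after thinning). Cyba was negative in 7 of 9 and Ncf4 positive in 7 of 9, and Rac2 was split 4 to 5. No Ncf4 interval left out 0. The classes of a library were prepared together and are not replicates of the condition.

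The other genes of the pathway were taken from 6 lists and read beside all genes, whose median log2 ratio was 0.07 in neutrophils and 0.00 in macrophages. Of the assembly partners described here, Cybc1 was counted as higher in neutrophils, beside 15.8% of all genes in that class, and none was apart in macrophages. Rac1, the widely expressed relative of Rac2, was at 525 and 504 CPM in neutrophils and 1117 and 1029 CPM in macrophages. Cybc1, a chaperone needed for gp91phox, had 11.8 and 23.2 CPM in neutrophils, a ratio of 0.97 (-0.48 to 2.45) from 9 and 10 UMIs. It would not be measured at a 50 CPM limit. Hvcn1, the proton channel that balances the charge moved by the oxidase, had 34.7 and 44.1 CPM in macrophages and 410.3 and 445 CPM in B cells. Of the other NADPH oxidases, such as Nox1 and Duox1, none of 7 was measured in either class.

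Of 9 genes of activating signalling, all were measured in neutrophils, none was higher and 2 were lower, with a median of -0.27, beside the 15.8% higher and 8.48% lower of all genes in this class. At a 50 CPM limit 8 were measured and 1 was lower, with a median of -0.16. Prkcb, a protein kinase C that phosphorylates p47phox, went from 118 to 67.3 CPM, a ratio of -0.81 (-1.47 to -0.19), and Pik3cg, a lipid kinase, from 26.3 to 11.6 CPM, a ratio of -1.18 (-2.95 to 0.28). Syk, a tyrosine kinase below Fc receptors and integrins, was at 645 and 624 CPM. In macrophages none of the 9 was apart and the median was -0.11, with Fgr, a Src-family kinase, highest at 0.48.

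NADPH, the electron donor, comes in large part from the pentose phosphate pathway. Of 7 such supply genes 4 were measured in neutrophils and 2 were higher, with a median of 0.45, beside 15.8% of all genes higher and 8.48% lower. At a 50 CPM limit, however, 3 were measured and 1 was higher, with a median of 0.07 against 0.03 for all genes. Pgd had 69.6 and 148.5 CPM, a ratio of 1.09 (0.55 to 1.65), and G6pdx a ratio of 0.82 (-0.69 to 2.33), while Taldo1 had 337 and 355 CPM. In macrophages 6 were measured, none was apart and the median was 0.05. Among 8 genes that handle superoxide and peroxide, 5 were measured in neutrophils, of which 1 was higher and 1 lower, beside the same 15.8% and 8.48%. Sod2, the mitochondrial superoxide dismutase, was higher at 511 and 777 CPM, a ratio of 0.61 (0.39 to 0.82), and Gpx1, a glutathione peroxidase, lower at -0.63 (-1.34 to 0.04). In macrophages 7 were measured and none was apart, with Prdx5 at 501 and 692 CPM. Mpo, the granule enzyme that turns peroxide into hypochlorous acid, had 0 UMIs in neutrophils of both libraries, which allows up to 3.94 and 6.96 CPM.

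Of 6 myeloid transcription factors, 3 were measured in neutrophils and none was apart. Spi1, the gene of PU.1, was at 134 and 130 CPM, and Cebpb at 7471 and 6537 CPM. In macrophages 5 were measured and 1, Irf4, was lower, from 38.5 to 18.4 CPM, beside 4.02% of all genes. At a 50 CPM limit 4 were measured and none was lower.

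The pattern of each member was last compared with those of 4301 other genes over 22 points, the 11 classes in both libraries, as Pearson's r of log2(CPM + 10). The points share their libraries and differ in depth, so r is a description. Cybb was most like Fcgr2b, an inhibitory Fc receptor, at 0.86, then Ms4a4c at 0.85 and Ly86 at 0.85. Cyba was most like Nckap1l at 0.88, Ctss, a cathepsin of antigen-presenting cells, at 0.87 and Arpc5 at 0.87. For Ncf1 the nearest were Il10ra at 0.89, Atp6v0e at 0.89 and Basp1 at 0.86, and for Ncf4 they were Atp8b4 at 0.91, Itgb2, the shared chain of leukocyte integrins, at 0.88 and Vsir at 0.87. Rac2 was nearest to Arhgdib at 0.93, to Neurl3 at 0.93 and to Cd69 at 0.91. Among the members themselves r ran from 0.07 for Ncf1 with Rac2 to 0.61 for Cyba with Ncf1, and was 0.61 for Cybb with Cyba.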

How the data were processed

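Each deposited matrix held raw counts, as UMIs of 31253 genes in each barcode. Cell Ranger and mm10 are named in the submitters' processing notes, with no version or role. Barcodes with under 200 genes, with over 20% mitochondrial UMIs or among the top 4% of Scrublet scores (scanpy 1.11.5) were left out, 575 in wt and 547 in the other library. Both libraries were clustered together (2000 variable genes without the members and 42 pathway genes, 30 components, 15 neighbours, leidenalg 0.10.2 at resolution 1), and neutrophils, monocyte-macrophages and dendritic cells again at 0.6. Clusters were named by the class with the largest share, at least 40%, of markers 2-fold higher than elsewhere. The doublet share, the 100 CPM Ptprc limit, the 500 CPM Cd3e limit that left NK-like clusters unnamed (161 and 156 unnamed cells in all) and the limits for mixed sub-clusters (470 and 400 cells) were chosen after seeing the data. UMIs were summed per class and scaled to CPM. Intervals are exact Poisson for levels, Clopper-Pearson for shares and conditional binomial for ratios (scipy 1.17.1), and a count of 0 was read as allowing 3. The ratio step was tested on simulated data. All 5 members are given in each class compared between the libraries, and from each pathway list up to 4 genes in neutrophils and macrophages, by abundance, by the extremes of the ratio or by passing 1.5-fold. For likeness the 3 nearest genes with at least 100 CPM in 1 point are named. The members and lists were chosen with earlier results of these data known. A gene of the assembly partner list is not reported here, and that list is given without counts.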

Additional observations from a re-analysis of the deposited data

How the results depend on the processing

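No paired analysis was possible because each label had 1 library and no test was run. Over 18 alternatives, 91 summary values stayed within their limit and 18 moved, and of the single ratios and levels 878 stayed, 71 moved and 5, of pairs counted as apart, changed sign. Over all 45 ratios between the libraries, 64 of 651 alternative values had the sign opposite to the reported one, in 27 ratios. The cause was not tested for any of them. The 5 were Ncf4 in Ccr7 dendritic cells, -0.17 without the top 8% of doublet scores and -1.41 without cells holding other classes' marker UMIs, Cybb in NK cells, -0.46 with the 8% limit and -0.10 with at least 500 genes per cell, and Cyba in neutrophils, -0.10 with at least 500 genes. The 7 higher pairs became 4 at resolution 2 and without the top cell of each library, and 11 at the lower fold limit tried. The 2 lower pairs became 4 with the 8% doublet limit, with means over cells and without the top cell, 5 after thinning, 7 without cells holding other classes' marker UMIs, 11 at the lower fold limit and 0 at 2-fold. As a log2 ratio of neutrophils over macrophages, mean of both libraries, Cybb moved from -4.50 to -4.06 with doublets kept, -5.25 after thinning and -3.11 with mixed sub-clusters kept. By the same measure Ncf1 moved from 0.94 to 0.68 at a 10% mitochondrial limit, and Ncf4 from 0.30 to 1.27 after thinning. Rac2 moved from 0.28 to 0.12 without mitochondrial and ribosomal genes, 0.50 after thinning and 0.76 without cells holding other classes' marker UMIs. Keeping the mixed sub-clusters and weighting sub-clusters equally were chosen after seeing the data. B cells gave no value in some settings. Depth limits the neutrophil values of Cybb and Cyba, which rest on 15 to 35 UMIs. Values after thinning rest on fewer UMIs than those at full depth, and for macrophage Ncf4 on 3 and 10 cells with a UMI.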
